A study of Saccharomyces cerevisiae S288C with 18 samples.

Results

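The 3′ untranslated regions (3′ UTRs) of yeast mRNAs were examined as separate rows of the count tables, each set beside the row of the reading frame of the same gene. The members were chosen by name alone: every row whose identifier ends in 3UTR, paired with the row of the same systematic name ending in ORF or, for spliced genes, exon. There were 5548 such rows among the 23521 rows of each table, of which 5285 had an ORF row and 263 an exon row as partner. Of these, 465 had no read in any library, 238 of them beside an exon row. Another 1174 had reads but fewer than the minimum set for testing. The remaining 3909 pairs had at least 10 reads in both rows in at least 3 libraries. Of these, 2040 reached 10 reads in both rows in libraries of all 6 groups, and 29 did so in libraries of only 1 group. A low level in one group could therefore not be measured for every pair.

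The 18 libraries came from 6 groups of 3 replicates, and replicates were independent experiments. All tagged strains were Saccharomyces cerevisiae BY4741 carrying a TAP tag (calmodulin-binding peptide, TEV site and Protein A) with the HIS3MX6 marker at the end of one gene, and each bait was represented by a single collection strain. The baits were Upf1, encoded by NAM7, an RNA helicase required for nonsense-mediated decay; Pab1, the poly(A)-binding protein; Rpl16a, a protein of the large ribosomal subunit; and Lsm1, a subunit of the Lsm1-7 ring that binds the 3′ end of mRNAs before decapping. Cells were grown to exponential phase in rich medium (YPD), the tagged protein was captured on IgG magnetic beads, and the RNA that came with it was sequenced after ribosomal RNA depletion. The control purification used the untagged BY4741 strain with the same beads. The input was RNA of the total extract taken before purification; the sources used here do not name its strain.

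A 3′ UTR lies between the stop codon and the poly(A) tail. It carries the signals for cleavage and polyadenylation and the binding sites of regulatory proteins, and it is normally free of translating ribosomes. Pab1 covers the adjoining tail, the Lsm1-7 complex binds near the 3′ end of mRNAs with short tails, and Upf1 takes part in the recognition of a stop codon as premature, for which a long 3′ UTR is one known feature. The measure used here was the number of 3′ UTR reads per 100 coding reads of the same gene in the same library, called the ratio below. Differences in depth between libraries cancel in it when counts are large. Medians per library were taken after a fixed small number of reads was added to both rows. Where counts are low, these medians therefore still depend on depth. The sources used here do not give the lengths of the counted 3′ UTRs, so a gene is compared with itself across groups and no ranking of genes by ratio is given. A higher ratio may come from more 3′ UTR reads or from fewer coding reads, and the ratio alone cannot tell these apart.

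The count tables hold no coordinates. To show what some of these regions contain, the first 200 bases after the stop codon were read from the R64 reference, on the sense strand, for 5543 of the 5548 genes. A pair of short elements known from yeast 3′ UTRs were searched. The Puf3 site, TGTANATA, is bound by a repressor of mRNAs for mitochondrial proteins and was present in 804 windows (14.5%). The efficiency element, TATATA, takes part in 3′ end formation and was present in 2752 windows (49.6%). A Puf3 site whose N is T contains the efficiency element, so the searches overlap. The following sites lie in 4 genes described below for the size of their change in ratio; capitals mark the element, and each is written 5′ to 3′ on the strand of the gene.
BDF2, Puf3 site starting at base 131 after the stop codon, chrIV:333063-333086, plus strand: gtacttatTGTAAATAaaacaaag
MDJ1, Puf3 site starting at base 17, chrVI:104669-104692, minus strand: caatttctTGTAGATAaggaaaaa
IML2, efficiency element starting at base 173, chrX:283545-283566, plus strand: ggtgtcgaTATATAtagtgtta
MET2, efficiency element starting at base 69, chrXIV:118870-118891, plus strand: tctatattTATATAtagacaaa

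Library totals ranged from 2790148 to 16381719 reads. In 7 libraries, among them replicate 3 of every group, 5.68 to 67.0% of the reads lay in ribosomal DNA rows, against at most 0.0239% in the other 11. The rows counted as ribosomal DNA include YLR154C-G, a small frame inside the rDNA whose 3′ UTR row took up to 817854 reads (replicate 3 of the input). It was left out of summed values. Replicate 3 of the input and of Rpl16a-TAP had the fewest reads outside the rDNA: 1000 and 1599 of the 3909 pairs had no 3′ UTR read there, against at most 305 in any other library.

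Over all pairs, the median ratio was higher in all Upf1-TAP and Pab1-TAP libraries than in the control purification. For Pab1-TAP the margin was narrow (6.86 against at most 6.83). The median ratio overlapped between the groups in every other comparison of a purification with the control or the input. The median ratio in input replicates 1, 2 and 3 was 6.67, 4.62 and 8.20 reads per 100 coding reads. In the control purification it was 5.54, 6.67 and 6.83. In Upf1-TAP it was 7.99, 7.41 and 8.71. These 3 values lay above all 3 control libraries but overlapped with the input, whose replicate 3 was second only to Upf1-TAP replicate 3 in these 9 libraries. In input replicate 3 the tested pairs had a median of 2 reads in the 3′ UTR row, so its median ratio depends on the reads added. In Pab1-TAP it was 7.99, 6.86 and 15.5, with replicate 3 the highest of the 18 libraries. In Rpl16a-TAP it was 6.61, 5.36 and 5.73, and in Lsm1-TAP 6.75, 5.48 and 7.77; both groups lay within the range of the input.

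On the log2 scale, the library medians averaged −3.98 ± 0.42 in the input and −3.98 ± 0.17 in the control (SD, n = 3 here and below). The Upf1-TAP average was −3.64 ± 0.12, that of Pab1-TAP −3.40 ± 0.62, that of Lsm1-TAP −3.92 ± 0.25 and that of Rpl16a-TAP −4.09 ± 0.15. The difference from the control was 0.34 for Upf1-TAP and 0.58 for Pab1-TAP. Both had p = 0.1 in a two-sided exact permutation test, the smallest value that 3 libraries against 3 can give. Against the input the same differences had exact p = 0.3. Taken as same-numbered pairs of tagged and input libraries, Upf1-TAP was higher in 3 of 3 pairs and Pab1-TAP in 3 of 3 (exact sign-change p = 0.25, the smallest that 3 pairs can give). For Rpl16a-TAP the differences were −0.10 from the control and from the input (exact p = 0.5 and 0.7), for Lsm1-TAP 0.06 from both (exact p = 0.8 and 0.9), and for the control against the input −0.00 (exact p = 1). None of these differences passed a threshold of 0.05, which this design cannot reach for 1 value per library. With 5 reads in place of 0.5 added to each row, the difference of Upf1-TAP from the input was −0.46 and that of Pab1-TAP −0.18, and the differences from the control were 0.015 and 0.29. In the 319 pairs with 10 reads in both rows in all 18 libraries, the differences from the input were 0.65 for Upf1-TAP and 0.67 for Pab1-TAP. In these 319 pairs the Pab1-TAP medians (−2.53, −2.74 and −1.14) overlapped with the control (−3.04, −2.59 and −2.62), while Upf1-TAP stayed above it. Pab1-TAP also overlapped with the control without the filter on reads. With 5 reads added, both Upf1-TAP and Pab1-TAP overlapped with the control.

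When the reads of all tested pairs but YLR154C-G were summed, Upf1-TAP had 14.4, 15.6 and 18.3 3′ UTR reads per 100 coding reads and Pab1-TAP 11.2, 10.0 and 21.7. The input had 5.61, 4.07 and 8.67, the control 5.16, 6.94 and 7.14, Rpl16a-TAP 6.39, 4.98 and 5.02, and Lsm1-TAP 8.18, 6.43 and 9.06. All libraries of Upf1-TAP and Pab1-TAP thus lay above all libraries of the other 4 groups. The sum is dominated by abundant mRNAs, whereas the median gives each gene the same weight.

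**Figure D1:**
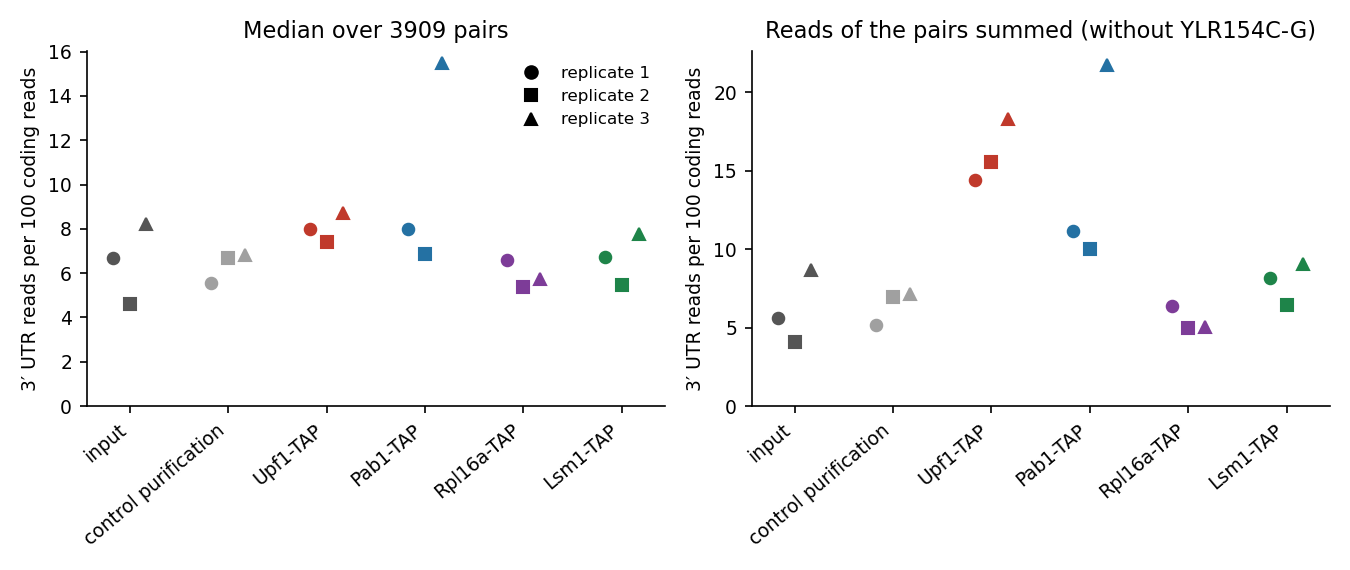
3′ UTR reads per 100 coding reads in each of the 18 libraries (linear axes from 0); circles, squares and triangles are replicates 1, 2 and 3. Left, median over 3909 pairs, where Pab1-TAP replicate 3 stands at 15.5; right, reads of the pairs summed without YLR154C-G, where the 6 libraries of Upf1-TAP and Pab1-TAP lie between 10.0 and 21.7 and the other 12 between 4.07 and 9.06.

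The rows of the bait genes come first among single genes, because the tag cassette was inserted at the end of the frame, ahead of the gene's own 3′ UTR. PAB1 had 0 reads in its 3′ UTR row in all 3 Pab1-TAP libraries, beside 5915, 6634 and 752 coding reads. In the input, PAB1 had 120, 205 and 6 reads there, or 1.98, 1.44 and 0.929 per 100 coding reads. The control had 1.75, 1.82 and 2.70 per 100, Upf1-TAP 3.23, 2.47 and 1.97, Rpl16a-TAP 1.85, 1.73 and 0.319, and Lsm1-TAP 2.62, 1.59 and 2.48. Taking 3 reads over the group as the limit that a count of 0 allows (0.0226 per 100), the PAB1 ratio was at least 70.3-fold lower than in the input and at least 90.0-fold lower than in the control. The call had adjusted p = 2.92e-05 and 6.25e-06 (edgeR quasi-likelihood test, Benjamini-Hochberg over 3909 pairs) and held when any one library was left out. Among the 2971 tested pairs with at least 1000 coding reads over the 3 Pab1-TAP libraries, PAB1 alone had no 3′ UTR read in that group. This row concerns the tagged gene itself, so it says nothing about the 3′ UTRs of other mRNAs bound by Pab1.

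For LSM1, Lsm1-TAP had 15.3, 10.8 and 17.9 reads per 100 coding reads, below all libraries of the input (29.7, 28.4 and 58.6) and of the control (30.5, 57.0 and 43.3). The log2 difference was −1.30 ± 0.46 from the input and −1.56 ± 0.44 from the control, and neither passed after adjustment (edgeR, adjusted p = 0.255 and 0.467). Here and below, ± after an edgeR change is an approximate SE derived from the change and its test statistic. NAM7 had 18.8, 20.1 and 25.2 per 100 in Upf1-TAP, within the range of the input (16.1, 12.0 and 29.9) and of the control (14.4, 26.4 and 22.0), with adjusted p = 0.828 against the input (edgeR). The NAM7 row therefore did not set Upf1-TAP apart in the way the PAB1 row set Pab1-TAP apart. The 3′ UTR row of RPL16A had no read in any library, so it gives no check of Rpl16a-TAP.

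**Figure D2:**
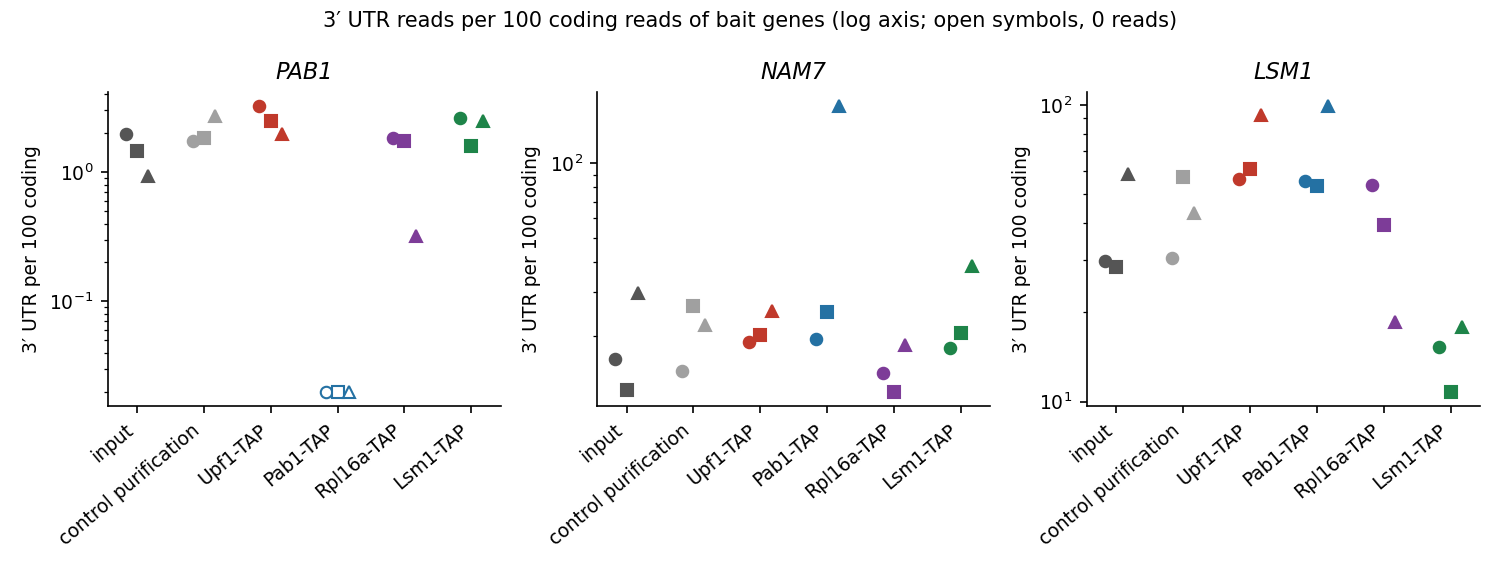
3′ UTR reads per 100 coding reads of the bait genes PAB1, NAM7 and LSM1 in each library (log axes); circles, squares and triangles are replicates 1, 2 and 3, and open symbols placed at the foot of a panel had 0 reads. PAB1 is at 0 in the 3 Pab1-TAP libraries and between 0.319 and 3.23 elsewhere; LSM1 is between 10.8 and 17.9 in Lsm1-TAP.

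The comparison of Upf1-TAP with the input asks which mRNAs had relatively more 3′ UTR in the Upf1-associated RNA than in total RNA. The ratio was higher for 196 of 3909 pairs (5.01%) and lower for 1 (0.0256%) at an adjusted p of at most 0.05 (edgeR). The called increases ranged from 1.32 to 5.60 on the log2 scale with a median of 2.20, against a median of 0.62 over all pairs. Most single pairs were thus shifted upward without passing. The control purification had a fitted median change of 0.21 against the same input, with 63.0% of pairs above 0, beside 81.4% with Upf1-TAP. The difference of library medians given above was −0.00 for the control, so these measures differ. When each library was centred on its own median pair, 109 pairs were higher and 17 lower. In 8 of the 12 tagged libraries, deviations from the group mean correlated best with those of the same-numbered input. With the replicate number as a block, which the main fit left out, 452 were higher and 10 lower. The total of 197 calls became 109, 112 and 118 without Upf1-TAP replicate 1, 2 or 3, and 111, 35 and 149 without input replicate 1, 2 or 3. Without replicate 3 of every group it was 734, without replicate 1 it was 6 and without replicate 2 it was 0.

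TYE7, a transcription factor of glycolytic genes, had the largest change under the naming rule. That rule required no overlap of the groups compared, which 26.2% of all pairs met for Upf1-TAP and the input. Upf1-TAP and the control did not overlap for 26.0% of all pairs, and the control and the input for 14.6%. Its ratio was 145, 128 and 828 reads per 100 coding reads in Upf1-TAP and 8.66, 11.5 and 18.4 in the input, a log2 change of 4.35 ± 0.80 (SE; edgeR, adjusted p = 0.0028). The TYE7 ratio was also high in the control purification, at 41.1, 102 and 92.7, and the control libraries lay above all 3 input libraries. CHA1, the catabolic serine and threonine deaminase, had 44.2, 37.8 and 55.8 per 100 in Upf1-TAP against 3.85, 1.74 and 1.98 in the input (4.20 ± 0.56, adjusted p = 0.000143 by edgeR). In the control CHA1 had 5.73, 4.63 and 3.61, so Upf1-TAP stood apart from both. Neither call was lost when any 1 library of the comparison was left out.

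CKA1, a catalytic subunit of casein kinase 2, had 41.6, 50.4 and 53.3 per 100 in Upf1-TAP and 2.04, 5.26 and 3.03 in the input (3.59 ± 0.48, adjusted p = 0.000145, edgeR). The control, with 15.0, 11.3 and 10.2, lay between both groups. AVL9, which acts in transport from the Golgi to the plasma membrane, had 22.9, 33.1 and 32.1 in Upf1-TAP, 5.95, 9.04 and 13.9 in the control and 2.91, 1.98 and 3.23 in the input (3.47 ± 0.57, adjusted p = 0.000884, edgeR). The 3 groups did not overlap for either gene, which the naming rule had fixed for Upf1-TAP and the input (26.2% of all pairs). Of all pairs, 26.0% had no overlap of Upf1-TAP with the control and 14.6% none of the control with the input. PIR3, a cell wall glycoprotein, rested on few reads: its 3′ UTR row had 3, 0 and 0 reads in the input and 64, 69 and 20 in Upf1-TAP. Per 100 coding reads, PIR3 had 17.8, 16.5 and 28.2 in Upf1-TAP and 16.0, 12.2 and 33.7 in the control, so these overlapped. Its call (adjusted p = 0.0143, edgeR) was lost without input replicate 2 (adjusted p = 0.25).

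The single decrease was in AXL1, a protease that matures the pheromone a-factor. AXL1 had 2.52, 2.20 and 2.46 reads per 100 in Upf1-TAP and 2.79, 14.2 and 22.7 in the input, and the control at 3.13, 3.17 and 3.10 was close to Upf1-TAP. The log2 change was −2.02 ± 0.56 (adjusted p = 0.0363, edgeR). The call was lost without any one of the 3 Upf1-TAP libraries, input replicate 2 or input replicate 3 (adjusted p from 0.068 to 0.41).

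Against the control purification, which shares the bead step, the ratio with Upf1-TAP was higher for 82 of 3909 pairs (2.1%) and lower for 0, with 548 higher and 9 lower at an unadjusted p under 0.05. DESeq2 made 82 calls and limma 40. The median change over all pairs was 0.40. Of the 82, 45 were also higher against the input, which is 54.9% of the first list and 23.0% of the second; both comparisons use the same Upf1-TAP libraries. The count fell to 41, 14 and 40 without Upf1-TAP replicate 1, 2 or 3 and to 33, 9 and 19 without control replicate 1, 2 or 3. GAB1, a subunit of the enzyme that attaches GPI anchors, had 36.8, 51.5 and 133 per 100 in Upf1-TAP and 7.46, 4.69 and 5.19 in the control (3.33 ± 0.55, adjusted p = 0.00268, edgeR). CHA1 rose by 3.30 ± 0.51 (adjusted p = 0.00193, edgeR). NUP192, an inner-ring nucleoporin, had 36.8, 44.8 and 156 in Upf1-TAP and 4.34, 11.0 and 9.19 in the control (3.03 ± 0.71, adjusted p = 0.0252, edgeR). The calls of GAB1 and CHA1 held without any 1 library, and that of NUP192 was lost without Upf1-TAP replicate 2 or 3 or any one of the control libraries (adjusted p from 0.062 to 0.12).

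**Figure D3:**
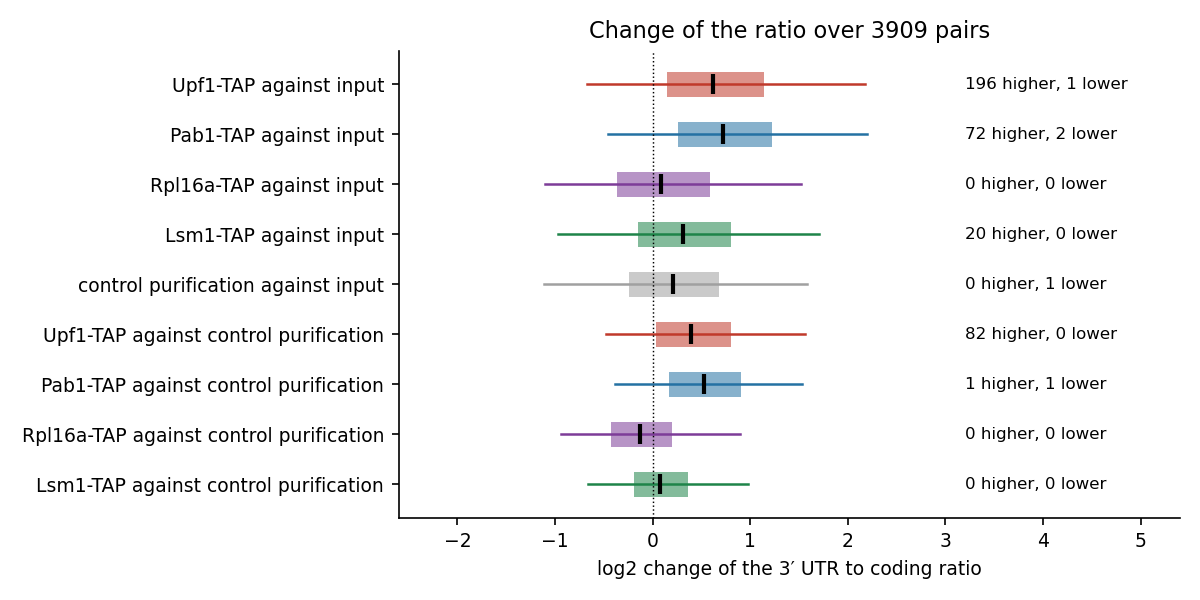
Change of the ratio between groups over the 3909 pairs (log2, fitted by edgeR): black line, median; box, 25th to 75th percentile; thin line, 5th to 95th percentile; text, pairs called higher or lower. The medians are 0.62 for Upf1-TAP and 0.72 for Pab1-TAP against the input, 0.21 for the control purification and 0.09 for Rpl16a-TAP.

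Pab1-TAP was compared with the input in the same way, to see which mRNAs had relatively more 3′ UTR in the RNA bound through the poly(A)-binding protein. The ratio was higher for 72 of 3909 pairs (1.84%) and lower for 2 (0.0512%), with called increases from 1.62 to 5.36 on the log2 scale and a median of 2.42. The median over all pairs was 0.72, the largest of the 5 comparisons with the input, where the control had 0.21. With each library centred on its median pair, 21 were higher and 3 lower. With the replicate block, 484 were higher and 3 lower. Dropping Pab1-TAP replicate 1, 2 or 3 turned the total of 74 into 51, 309 and 37, and dropping input replicate 1, 2 or 3 turned it into 26, 2 and 81. In a fit of these 6 libraries alone, 1 call was made. Of the 72, 48 were also higher with Upf1-TAP, which is 66.7% of the first list and 24.5% of the second; both comparisons use the same input libraries.

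MDJ1, the mitochondrial partner of Hsp70 that carries the Puf3 site shown above, had 12.1, 7.16 and 19.3 reads per 100 in Pab1-TAP and 0, 1.35 and 0 in the input (3.76 ± 0.65, adjusted p = 0.00684, edgeR). With no 3′ UTR read in input replicates 1 and 3, the size of this change rests on input replicate 2. In the other purifications MDJ1 had between 3.17 and 8.59 per 100, the control included. BDF2, a bromodomain protein of chromatin whose window holds the other Puf3 site, had 14.6, 12.0 and 41.4 in Pab1-TAP and 0.966, 1.69 and 2.76 in the input (3.56 ± 0.63, adjusted p = 0.00684, edgeR). The BDF2 ratio in the control was 6.54, 13.6 and 15.8, which overlaps with Pab1-TAP. For both genes the input stood apart from all purifications, which the naming rule had fixed for Pab1-TAP. The share of all pairs with no overlap with the input was 21.2% for Pab1-TAP. For the other purifications it ranged from 10.8% (Rpl16a-TAP) to 26.2% (Upf1-TAP). The BDF2 call was lost without input replicate 2 (adjusted p = 0.093), and the MDJ1 call held without any 1 library.

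OGG1, a DNA repair glycosylase, had 20.8, 13.8 and 42.2 per 100 in Pab1-TAP and 0, 2.48 and 0 in the input (3.59 ± 0.68, adjusted p = 0.00915, edgeR), and 12.3, 13.1 and 9.57 in the control. Its size also rests on input replicate 2, without which the log2 change was 6.60. CRP1, which binds cruciform DNA, had 3.39, 3.15 and 8.62 in Pab1-TAP, 2.84, 2.31 and 1.91 in the control and 0, 0.149 and 1.40 in the input (3.61 ± 0.71, adjusted p = 0.0121, edgeR). The control lay above the input for both, where 14.6% of all pairs had no overlap of these groups. PIR3 had 36, 43 and 18 reads in its 3′ UTR row in Pab1-TAP, or 17.7, 16.5 and 51.4 per 100, overlapping with the control given above (adjusted p = 0.0245 against the input, edgeR). Each of these 3 calls was lost without input replicate 2 (adjusted p = 0.098 for OGG1, 0.25 for CRP1 and 0.28 for PIR3).

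Beside the bait gene PAB1, the ratio fell with Pab1-TAP for SPC110, a coiled-coil protein of the spindle pole body. SPC110 had 9.63, 10.5 and 12.8 per 100 in Pab1-TAP and 38.1, 39.1 and 47.8 in the input, on 16, 36 and 11 input reads (−1.92 ± 0.45, adjusted p = 0.0284, edgeR). It was also the only pair of 3909 (0.0256%) that passed between the control purification and the input, where the control had 6.92, 3.53 and 9.01 (−2.76 ± 0.46, adjusted p = 0.0155, edgeR). Its ratio was below the input in every purification, with 2.13 to 27.6 over the other 3 tagged groups. The Pab1-TAP call was lost without Pab1-TAP replicate 1 or any one of the input libraries (adjusted p from 0.057 to 0.19), and the control call without control replicate 1 or 2 or any one of the input libraries (adjusted p from 0.055 to 0.25). At an unadjusted p under 0.05, 227 pairs were higher and 80 lower in the control than in the input. DESeq2 and limma made 2 calls each there.

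Against the control purification, 2 of 3909 pairs (0.0512%) passed for Pab1-TAP: the bait gene PAB1, lower, and MET2, higher. At an unadjusted p under 0.05, 526 were higher and 15 lower, and the median change over all pairs was 0.53. MET2, the homoserine acetyltransferase of methionine synthesis, had 35.7, 133 and 215 per 100 in Pab1-TAP. In every other library the MET2 ratio was between 4.11 and 21.1, with 4.11, 6.67 and 6.77 in the control and 7.27, 7.58 and 7.08 in Upf1-TAP (4.08 ± 0.55 against the control, adjusted p = 0.000276, edgeR). The count was 2 without any 1 library of the comparison.

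**Figure D4:**
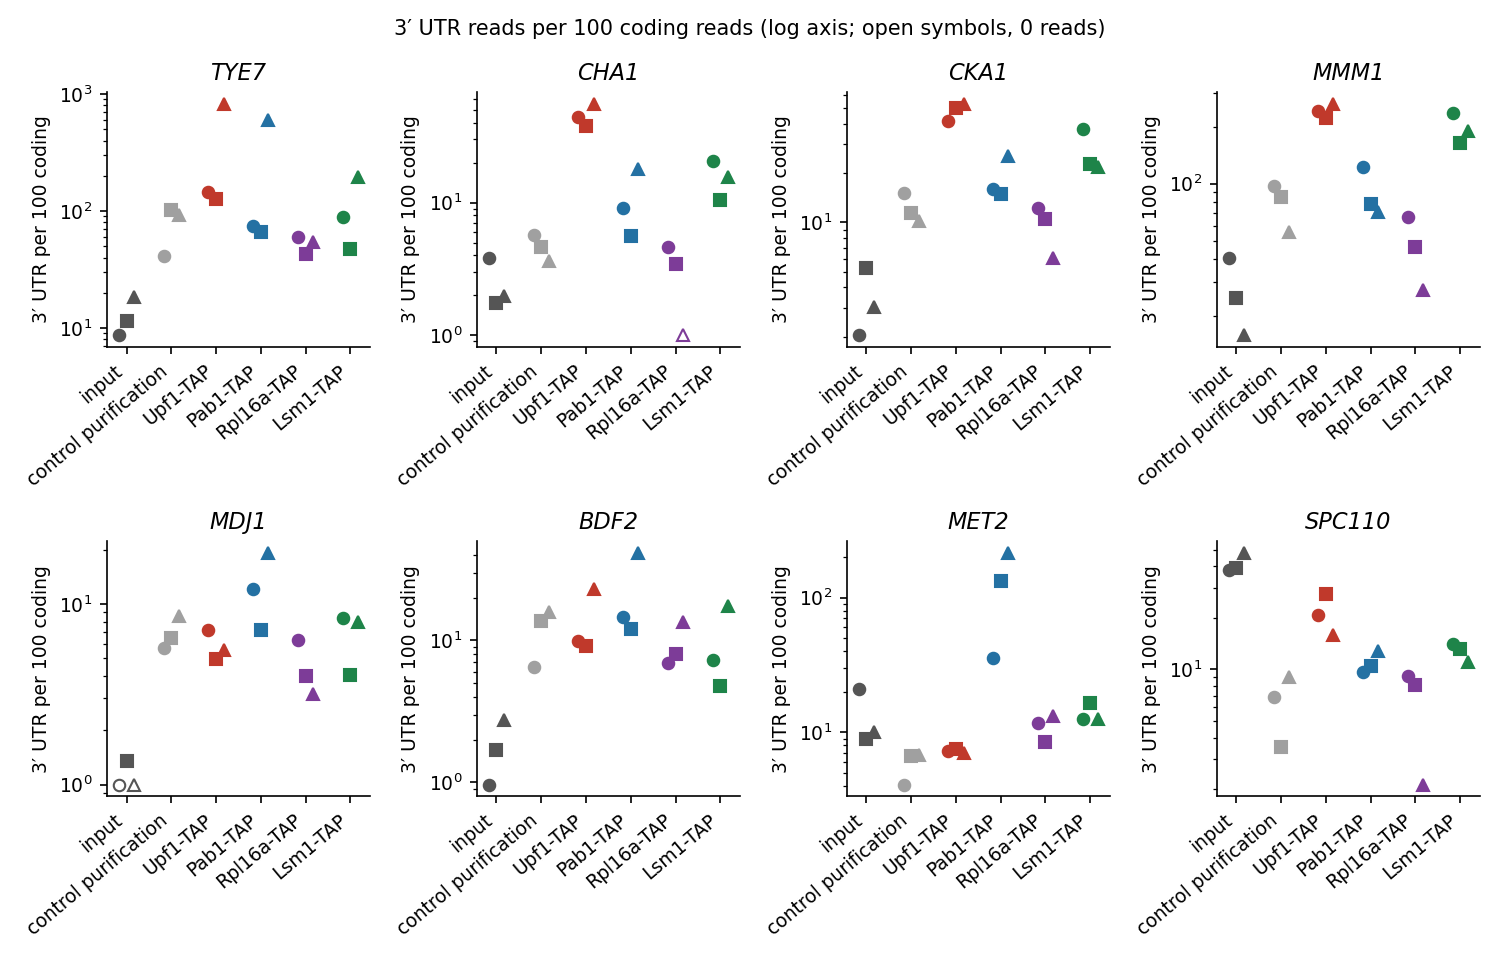
3′ UTR reads per 100 coding reads of 8 genes named in the text, in each library (log axes); circles, squares and triangles are replicates 1, 2 and 3, and open symbols placed at the foot of a panel had 0 reads. CHA1 is highest in Upf1-TAP (37.8 to 55.8), MET2 in Pab1-TAP (35.7 to 215), MMM1 in Upf1-TAP and Lsm1-TAP, and SPC110 in the input (38.1 to 47.8).

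With Lsm1-TAP the ratio was higher than in the input for 20 of 3909 pairs (0.512%) and lower for none, with 358 higher and 48 lower at an unadjusted p under 0.05. All 20 were also higher with Upf1-TAP against the same input libraries, which is 10.2% of the Upf1-TAP list. The median change over all pairs was 0.31, beside 0.21 for the control against the input. Median-centred libraries gave 35 higher and 5 lower, and the replicate block 73 higher and 8 lower. The count became 0, 15 and 4 without Lsm1-TAP replicate 1, 2 or 3, and 4, 0 and 9 without input replicate 1, 2 or 3. MMM1, the ER subunit of the complex that tethers it to mitochondria, had 237, 163 and 190 reads per 100 in Lsm1-TAP and 40.3, 24.8 and 15.8 in the input (2.80 ± 0.43, adjusted p = 0.00447, edgeR). Its ratio was 241, 221 and 264 in Upf1-TAP and 96.6, 84.6 and 55.3 in the control, so both tagged groups stood above the control. Of all pairs, 26.0% had no overlap of Upf1-TAP with the control and 9.77% none of Lsm1-TAP with it. The Lsm1-TAP call of MMM1 was lost without Lsm1-TAP replicate 1 or input replicate 2 (adjusted p = 0.062 and 0.10).

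PRM15, a phosphoribomutase, had 314, 177 and 99.7 per 100 in Lsm1-TAP and 29.1, 15.0 and 16.0 in the input (3.16 ± 0.56, adjusted p = 0.0115, edgeR), with 232, 194 and 108 in Upf1-TAP. Its lowest value in either tagged group was above its highest in the control (77.4). Its call was lost without Lsm1-TAP replicate 1 or input replicate 2 (adjusted p = 0.12 for both). The other named increases were MIY2, a deubiquitinase (3.12 ± 0.70, on 3 input reads in all), IML2 (2.94 ± 0.61) and MDJ1 (2.91 ± 0.67), with adjusted p from 0.0316 to 0.0478 (edgeR). Without input replicate 2, the only input library with an MDJ1 3′ UTR read, the MDJ1 change was 6.53. IML2 had 8.04, 5.27 and 7.34 per 100 in Lsm1-TAP against 0.599, 1.07 and 0 in the input, and 5.17, 3.66 and 6.11 in the control. The calls of IML2 and MDJ1 were each lost without Lsm1-TAP replicate 1 or 3 or any one of the input libraries, and that of MIY2 without any one of the 6 libraries (adjusted p from 0.062 to 0.31 over the 3 genes). Against the control purification, Lsm1-TAP had 0 calls among 3909 pairs (0%) by edgeR, with 112 higher and 14 lower at an unadjusted p under 0.05, 3 calls by DESeq2 and 0 by limma.

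Rpl16a-TAP, the purification of ribosomes, had 0 calls (0%) among the 3909 pairs against the input, with 182 higher and 60 lower at an unadjusted p under 0.05 and 1 call each by DESeq2 and limma. The replicate block gave 7 higher and 3 lower. The median change was 0.09. Against the control it also had 0 calls (0%), with 35 higher and 34 lower at an unadjusted p under 0.05, a median change of −0.13, and 0 calls by DESeq2 and limma. These comparisons include the shallowest library outside the rDNA, and leaving out that or any other single library of either comparison left the count at 0. Without replicate 3 of every group, 21 pairs passed against the input.

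In a test of any difference among the 6 groups, 96 of 3909 pairs (2.46%) passed (edgeR F test). The group with the highest mean ratio was Upf1-TAP for 68 of them, Pab1-TAP for 18, Lsm1-TAP for 5, Rpl16a-TAP for 3 and the input for 2. The lowest was the input for 51, Rpl16a-TAP for 21, the control for 18 and each of the other groups for 2. The smallest adjusted p in this F test were those of the bait gene PAB1, 0.000102, and of CHA1, IRC24, TAT1 and MET2, 0.000654 each. This count became 1 without replicate 1 of every group, 0 without replicate 2 and 456 without replicate 3.

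Gene groups chosen by function are given below as counts, to be read against the share of all 3909 pairs that rose against the input: 5.01% with Upf1-TAP, 1.84% with Pab1-TAP and 0.512% with Lsm1-TAP. The mRNAs known as targets of nonsense-mediated decay had 13 tested members, and 0 passed with Upf1-TAP or Lsm1-TAP against the input, beside 5.01% and 0.512% of all pairs. EST1, a telomerase subunit, passed with Pab1-TAP, where it had 14.9, 21.6 and 53.1 reads per 100 against 2.13, 5.38 and 0 in the input (2.64 ± 0.66, adjusted p = 0.0378, edgeR). The EST1 call was lost without Pab1-TAP replicate 3 or any one of the input libraries (adjusted p from 0.057 to 0.20). The median change of the 13 was 1.08 with Upf1-TAP, against 0.62 over all pairs, and 11 of them were above 0. ALR1, a magnesium transporter whose mRNA had the most 3′ UTR reads of this group, had 13.3, 18.5 and 19.7 in Upf1-TAP, 9.40, 10.2 and 9.33 in the input and 7.99, 10.1 and 13.0 in the control. Upf1-TAP lay above both groups for ALR1, but no test was passed. Over all pairs, 26.2% had no overlap of Upf1-TAP with the input and 26.0% none with the control. Against the control, the median change of the 13 was 0.36, beside 0.40 over all pairs.

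Of 136 cytosolic ribosomal protein genes, 48 were tested and 5 rose with Upf1-TAP against the input: RPL4B, RPS25A, RPL8A, RPS31 and RPS3, beside 5.01% of all pairs. None passed with Pab1-TAP, Rpl16a-TAP or Lsm1-TAP. RPL8A had 93.1, 89.4 and 277 per 100 in Upf1-TAP, 17.4, 14.0 and 48.2 in the input, 19.8, 34.6 and 24.2 in the control and 89.7, 49.6 and 84.0 in Lsm1-TAP (2.55 ± 0.67 for Upf1-TAP against the input, adjusted p = 0.0278, edgeR). The RPL8A call was lost without Upf1-TAP replicate 3, input replicate 1 or input replicate 2 (adjusted p from 0.093 to 0.20). RPS25A had 29.0, 22.4 and 38.8 in Upf1-TAP, 7.52, 6.61 and 8.04 in the input and 10.7, 11.3 and 11.0 in the control (1.99 ± 0.41, adjusted p = 0.00729, edgeR). Both genes showed Upf1-TAP above all input and control libraries, where 26.2% and 26.0% of all pairs had no overlap with these groups. Without input replicate 2 the adjusted p of RPS25A was 0.051. RPL4B and RPS31 were at most at 0.115 and 0.407 per 100 in any library. Their calls and that of RPS3 were lost without 5, 5 and 4 of the 6 libraries (adjusted p from 0.054 to 0.37). The median change of the 48 was 0.48 with Upf1-TAP, below the 0.62 of all pairs. Spliced genes have exon rows, and 18 of the 263 exon pairs were tested in all.

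Among translation factors, 3 of 25 tested rose with Upf1-TAP against the input (5.01% of all pairs did): SUP45, the release factor eRF1; NIP1, a subunit of eIF3; and ANB1, the eIF5A made under low oxygen. SUP45 had 13.4, 11.6 and 27.8 per 100 in Upf1-TAP, 3.94, 3.32 and 6.30 in the input and 4.17, 6.15 and 6.36 in the control (1.93 ± 0.51, adjusted p = 0.0298, edgeR). The calls of SUP45 and ANB1 were lost without 4 of the 6 libraries each and that of NIP1 without any one of them (adjusted p from 0.058 to 0.41). The median change of the 25 with Upf1-TAP was 0.98 against the input, beside 0.62 over all pairs. Against the control it was 0.27, below the 0.40 over all pairs. Among 32 tested genes of the respiratory chain and ATP synthase, QCR7, SDH2 and COX12 rose with Upf1-TAP (all pairs, 5.01%), and QCR7 also with Pab1-TAP (1.84%) and Lsm1-TAP (0.512%). QCR7, of complex III, had 37.9, 41.5 and 51.0 in Upf1-TAP and 5.61, 9.25 and 16.7 in the input, while the control at 25.8, 34.5 and 32.6 was also above the input. Its Upf1-TAP call held without any 1 library. Its Pab1-TAP and Lsm1-TAP calls were lost without 2 and 5 of the 6, and those of SDH2 and COX12 without Upf1-TAP replicate 3, input replicate 1 or input replicate 2 (adjusted p from 0.063 to 0.29).

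DHH1, the helicase that activates decapping, rose with Upf1-TAP, 1 of 23 tested decay factors, which is a share near the 5.01% of all pairs. It had 25.7, 18.1 and 23.8 per 100 there, 9.15, 3.63 and 4.69 in the input and 12.9, 10.3 and 11.8 in the control (1.99 ± 0.49, adjusted p = 0.0186, edgeR). Its call was lost without Upf1-TAP replicate 1 or 3 or input replicate 2 (adjusted p from 0.053 to 0.23). Of 22 tested cell wall genes, PIR3 rose with Upf1-TAP, against 5.01% of all pairs, and PIR3, UTR2 and CRH1 rose with Pab1-TAP, against 1.84%. UTR2 and CRH1 encode enzymes that link chitin to glucan, and their calls were lost without 5 and 4 of the 6 libraries (adjusted p from 0.055 to 0.34). Of 35 tested ribosome biogenesis genes, NOP56, a core protein of box C/D snoRNPs, rose with both and RRP5 with Pab1-TAP (all pairs, 5.01% with Upf1-TAP and 1.84% with Pab1-TAP), and these 3 calls were lost without input replicate 2 (adjusted p from 0.16 to 0.24). KAR2, the chaperone of the ER, rose with Upf1-TAP, 1 of 20 tested chaperones and so a share near the 5.01% of all pairs, and its call was lost without any one of the 6 libraries (adjusted p from 0.055 to 0.19). Of 17 tested proteins that bind 3′ UTRs or poly(A), only PAB1 passed, the bait gene whose tag lies ahead of its 3′ UTR, as given above.

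No member passed in the comparisons of the tagged groups with the input among 8 core histones, 17 genes of glycolysis and fermentation, 14 cleavage and polyadenylation factors and 58 mitochondrial ribosomal proteins. Over all the gene groups described, the bait gene PAB1 with Pab1-TAP was the only call against the control purification. HHT2, a histone H3 gene and among the 4 genes with the most 3′ UTR reads, had 103, 98.3 and 285 per 100 in Upf1-TAP, 45.6, 68.8 and 152 in the input and 46.6, 127 and 130 in the control, so the groups overlapped. RPS28B, known for a long 3′ UTR through which its own protein controls its decay, had 548, 734 and 1009 in the input and 666, 543 and 980 in Upf1-TAP. Pab1-TAP had 640, 627 and 720, again with overlap. RPS20 was between 49.1 and 107 in all 18 libraries.

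The shift seen with Pab1-TAP differed with the length of the coding sequence. In the 978 tested genes of at most 741 bases, the median change against the input was 0.47 and 2 pairs passed; in the 977 of over 1840.5 bases, it was 0.89 and 27 passed, where 1.84% of all pairs passed. With Upf1-TAP, the medians were 0.69 and 0.53, and 47 pairs passed in each of these classes (4.81% of each, near the 5.01% of all pairs). In Pab1-TAP libraries 1, 2 and 3 the median ratio of the shortest genes was 20.7, 16.9 and 26.5 and that of the longest 4.11, 3.76 and 11.0. In the input it was 18.3, 13.1 and 18.5 for the shortest and 3.29, 2.56 and 5.08 for the longest. Replicate 3 was the highest Pab1-TAP library in both classes, and Pab1-TAP and the input overlapped in both. These are descriptions without a test.

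**Figure D5:**
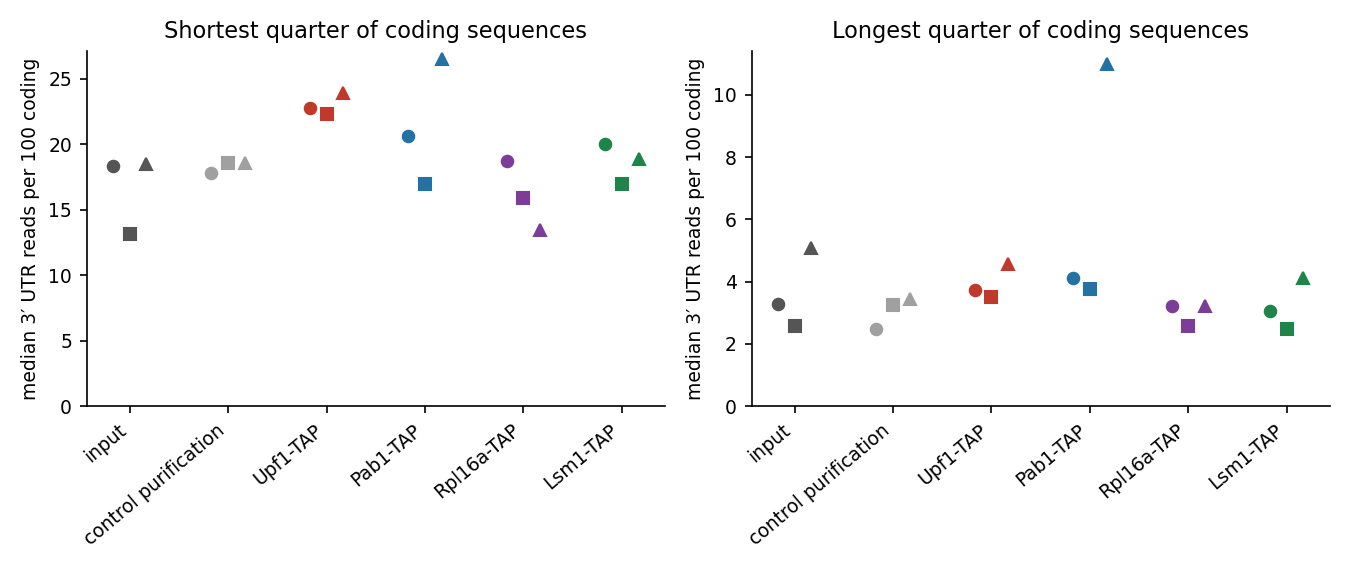
Median 3′ UTR reads per 100 coding reads in each library for the 978 genes with the shortest (left) and the 977 with the longest (right) coding sequences (linear axes from 0, scales differ); circles, squares and triangles are replicates 1, 2 and 3. Pab1-TAP replicate 3 is at 26.5 on the left and 11.0 on the right, the highest library in both.

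What lies after the stop codon is given next for called pairs and for all tested pairs, again as a description. The efficiency element TATATA was present in the first 200 bases of 50.7% of tested genes, 28.6% of those higher with Upf1-TAP against the input (56 of 196), 41.7% with Pab1-TAP (30 of 72) and 35% with Lsm1-TAP (7 of 20). The median change with Upf1-TAP was 0.56 in genes with it and 0.69 in genes without. The Puf3 site was in 15.3% of tested genes and 8.67% of those higher with Upf1-TAP (17 of 196). Among those higher with Pab1-TAP it was in 13.9% (10 of 72, MDJ1 and BDF2 included), near the share of tested genes. Genes with the next coding sequence more than 400 bases away had 108 calls of 1400 with Upf1-TAP (7.71%), and those with less than 100 bases 8 of 239 (3.35%), beside 5.01% of all pairs. The median changes were 0.65 and 0.54. A next gene that ran towards the 3′ UTR (convergent) or away in the same direction (tandem) made less difference. These had 112 calls of 2117 (5.29%) and 84 of 1789 (4.70%), both near the 5.01% of all pairs. A window with no match says only that these letters are not in its 200 bases.

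For 1055 genes the 5′ UTR row could be set beside the 3′ UTR row of the same gene. In Upf1-TAP the median 5′ UTR level was 3.75, 3.60 and 3.92 reads per 100 coding reads and in the input 4.23, 3.58 and 5.88, a log2 difference of −0.25 (two-sided exact permutation p = 0.4), while the 3′ UTR difference of the same genes was 0.21 (exact p = 0.6). In Pab1-TAP it was 2.89, 2.98 and 5.52, a difference of −0.30 (exact p = 0.5), while the 3′ UTR difference of the same genes was 0.57 (exact p = 0.4). Against the control, the 5′ UTR differences had the other sign, at 0.30 for Upf1-TAP (exact p = 0.1) and 0.25 for Pab1-TAP (exact p = 0.6), and the 3′ UTR differences were 0.18 (exact p = 0.5) and 0.54 (exact p = 0.4). For Upf1-TAP the 5′ UTR difference from the control was thus larger than the 3′ UTR difference in these genes. Replicate 3 of Pab1-TAP, the highest library for 3′ UTRs, was thus also the highest Pab1-TAP library for 5′ UTRs.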

How the data were processed

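RNA of 18 yeast libraries was sequenced from a TruSeq Stranded mRNA kit entered at fragmentation, after RiboZero or Ribominus depletion (the sources used here do not say which library had which). According to the submitters' processing notes and the study's methods, the deposited counts per feature were made by the authors with cutadapt 1.16, STAR 2.7 and featureCounts (Subread 1.6.2) on Ensembl R64-1-1 with added non-coding annotation. The strand setting, the treatment of multiple and overlapping hits, and the UTR coordinates are not named in the sources used here. Reads from overlapping or near-identical genes are therefore uncertain.

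Each library entered as a 3′ UTR column and a coding column of whole reads, without normalization. edgeR 4.0.16 (quasi-likelihood, R 4.3.3) was fitted to these 36 columns with 1 coefficient per library and 1 per group on the 3′ UTR column, over 3909 pairs with at least 10 reads in both rows in at least 3 libraries. Contrasts of groups were adjusted by Benjamini-Hochberg and called at 0.05. The SE beside each edgeR change was derived as the absolute change divided by the square root of its F statistic. It is unstable where reads are few: for ABM1 it was 8.11 with Lsm1-TAP against the input and 0.24 against the control. Medians per library used log2 with 0.5 added to both rows and a two-sided exact permutation test. No 2 replicates agreed within sampling noise (lowest chi-square per degree of freedom 17.7). Tested alternatives were DESeq2 1.42.0, limma 3.58.1, median centring, other filters and pseudocounts, fits of 6 libraries, replicate blocks and left-out libraries. The method was run on simulated data in which a pair had the same ratio in all libraries of a group. The shifts of whole libraries seen here were not simulated, so that run cannot show how calls behave under them.

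Replicate numbers come from the sample titles. Deviations from the group means were compared over 1391 pairs with a mean of at least 50 reads in both rows. Those of same-numbered tagged and input libraries correlated at 0.180 to 0.530, and these were taken as paired. This pairing entered the sign-change test and the fits with a replicate block, but not the main edgeR fit or the permutation tests. Control and input libraries correlated at 0.457, −0.316 and 0.382 and were not taken as paired.

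The members, the gene lists and the motifs were chosen with earlier results of these data known. Named genes were the bait genes; the 5 largest changes each way of each purification against the input, and the 3 largest of each tagged purification against the control, among called pairs with a mean of at least 20 reads in both rows and no overlap of the 2 groups; the 4 pairs with the most 3′ UTR reads; the members of each list with the most 3′ UTR reads; and HHT2, RPL28, PFK1 and CCW22. RPL28 had no 3′ UTR read and CCW22 no 3′ UTR row; PFK1 had no call. Called list members were named after their values were seen. Gene names, coding lengths and sequences came from RefSeq (R64).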

Additional observations from a re-analysis of the deposited data

How the results depend on the processing

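The counts of called pairs depended on the libraries used. With the replicate block, the calls against the input were 462 (Upf1-TAP), 487 (Pab1-TAP), 10 (Rpl16a-TAP), 81 (Lsm1-TAP) and 17 (control), those of the same tagged groups against the control 285, 220, 3 and 16, and those of any difference among groups 631; no call of a named gene was lost with it. This block also numbers the control libraries, whose replicate 2 deviated against replicate 2 of the input and the tagged groups (correlations from −0.481 to −0.316). The counts against the control and among all groups thus rest partly on a numbering that did not hold for replicate 2. A block without the control purification, chosen after seeing the data, gave 558, 561, 11 and 119 against the input. Median centring gave 126 (Upf1-TAP), 24 (Pab1-TAP), 40 (Lsm1-TAP) and 3 (control) against the input. With at least 10 reads in both rows in all 18 libraries (319 pairs), 23, 2, 0 and 0 were called for these groups against the input, 2 and 0 for Upf1-TAP and Pab1-TAP against the control, and 0 in the F test. Against the input, fits of the 6 libraries alone gave 1 (Pab1-TAP), 10 (Rpl16a-TAP), 32 (Lsm1-TAP) and 8 (control), and 1 and 4 for Pab1-TAP and Rpl16a-TAP against the control. DESeq2 gave 1 for Rpl16a-TAP and 2 for the control against the input and 3 for Lsm1-TAP against the control; limma gave 1 and 2 for the former and 40 for Upf1-TAP against the control. Without a filter (5063 pairs), Lsm1-TAP had 11 calls against the input and 1 against the control.

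Leaving out replicates, the counts against the input ranged from 0 to 734 (Upf1-TAP), 1 to 309 (Pab1-TAP), 0 to 21 (Rpl16a-TAP), 0 to 109 (Lsm1-TAP) and 0 to 19 (control). Against the control they ranged from 0 to 224, 1 to 2, 0 to 0 and 0 to 17, and in the F test from 0 to 456. The median differences from the input ranged from 0.17 to 0.47, 0.42 to 0.75, −0.26 to 0.10, −0.030 to 0.13 and −0.27 to 0.13, and from the control 0.25 to 0.44, 0.29 to 0.86, −0.28 to 0.0018 and −0.048 to 0.24, in the same orders.

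Adding 5 reads to each row gave median differences from the input of −0.46 (Upf1-TAP), −0.18 (Pab1-TAP), −0.63 (Lsm1-TAP) and −0.47 (control), and from the control of 0.015 (Upf1-TAP), 0.25 (Rpl16a-TAP) and −0.16 (Lsm1-TAP). The 319 pairs gave 0.65 for Upf1-TAP and 0.050 for the control against the input and 0.60 for Upf1-TAP against the control. Without a filter, Lsm1-TAP was at −0.060 and −0.014. Summed reads gave −0.58 and −0.62 for Rpl16a-TAP and Lsm1-TAP against the input and −0.38 and −0.42 against the control. Without YLR154C-G, chosen after seeing the data, they gave 1.46, 1.21, 0.42 and 0.12 for Upf1-TAP, Pab1-TAP, Lsm1-TAP and the control against the input, and 1.34, 1.08 and 0.30 against the control. The cause of these changes was not tested. Of 777 alternatives over 49 changes of named genes, 540 kept the call, 237 lost it and 0 reversed; PAB1 kept both of its calls in all. Depth limits the input and Rpl16a-TAP most, since their replicates 3 held few reads outside the rDNA.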

Other observations

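The following genes were chosen after their values were seen. HXT8, a member of the hexose transporter family, had 793, 1203 and 1042 reads in its 3′ UTR row in Upf1-TAP, against 21, 29 and 12 in the input and 25, 24 and 31 in the control, while its coding row had at most 37 reads in any library. Pab1-TAP had 203, 372 and 253 such reads and Lsm1-TAP 50, 79 and 60. The ratio of HXT8 rose with Upf1-TAP and with Pab1-TAP against the input (3.38 ± 0.53, adjusted p = 0.000532, and 2.59 ± 0.54, adjusted p = 0.0188, edgeR) and did not pass against the control (adjusted p = 0.115 for Upf1-TAP, edgeR). The Upf1-TAP call held without any 1 library, and the Pab1-TAP call was lost without input replicate 1 or 2 (adjusted p from 0.071 to 0.19). ABM1 also had far more 3′ UTR than coding reads, with 1649, 2936 and 412 3′ UTR reads beside 15, 37 and 3 coding reads in Upf1-TAP, and 33, 32 and 4 beside 0, 1 and 0 in the input. Its ratio passed in no comparison (0.92 ± 2.61 with Upf1-TAP against the input, adjusted p = 0.91, edgeR), unlike that of HXT8. Over all libraries, 125 tested pairs had more 3′ UTR than coding reads. Their median coding length was 330 bases, against 1200 over all tested pairs.

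TIM22, a channel of the mitochondrial inner membrane, TAT1, an amino acid permease, and IRC24, a probable reductase, rose with Upf1-TAP against both references and with Lsm1-TAP against the input. TIM22 also rose with Pab1-TAP against the input (1.86 ± 0.41, adjusted p = 0.0245, edgeR; lost without input replicate 1 or 2, adjusted p from 0.052 to 0.19). It had 133, 182 and 247 3′ UTR reads per 100 coding reads in Upf1-TAP, 50.6, 51.4 and 49.1 in the control and 22.8, 19.7 and 14.3 in the input. TAT1 had 33.0, 48.8 and 25.3 in Upf1-TAP, 26.7, 16.7 and 18.9 in Lsm1-TAP, 5.71, 4.36 and 3.92 in the control and 4.69, 5.43 and 4.17 in the input. IRC24 had 24.3, 27.0 and 37.2 in Upf1-TAP, 18.6, 11.2 and 11.5 in Lsm1-TAP, and at most 5.67 in any control or input library. For TAT1 and IRC24 the control and the input overlapped, unlike TIM22, and their Upf1-TAP calls held without any 1 library. That of TIM22 held against the input and was lost against the control without Upf1-TAP replicate 2 or control replicate 2 or 3 (adjusted p from 0.058 to 0.067). The Lsm1-TAP calls were lost without 4, 5 and 4 of the 6 libraries for TIM22, TAT1 and IRC24 (edgeR, adjusted p from 0.058 to 0.27).

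CHS1, chitin synthase I, had no 3′ UTR read beside 285, 940 and 198 coding reads in the input, the only one of 1037 tested pairs with at least 1000 coding reads over the input libraries to have none. The control had 2, 11 and 12 such reads beside 1639, 3014 and 2335 coding reads, and no comparison of CHS1 passed (edgeR, adjusted p from 0.152 to 1).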
